A study of Mus musculus with 6 samples.

Results

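The 24 h response of the mouse arcuate nucleus to dexamethasone (Dex), a synthetic glucocorticoid, was described across all genes measured. The members were chosen by label: the 2 libraries labelled Dex and the 2 labelled fed+Veh (called Vehicle here), out of 6 libraries, with values for 21461 genes in each. All animals were male mice aged 10 weeks, of the C57BL/6 strain by the study's methods, and received an intraperitoneal injection 24 h before the tissue was taken. Dex mice received 10 mg/kg of Dex. The third group, Dex+Zj7, received the same dose of Dex with 50 mg/kg of Zj7, and served here in the estimate of the spread between libraries. Vehicle mice received the solvent, and theirs is the only label that calls the animals fed, so any difference in feeding between the groups was not tested. The labels give the tissue as brain, and the dissection of the arcuate nucleus comes from the study's methods. Nothing in the labels says whether the libraries of a group are separate mice, so each p-value reflects the spread between libraries and not, for certain, between animals.

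Glucocorticoids cross the cell membrane and bind the glucocorticoid receptor, which then enters the nucleus and switches genes on or off from DNA elements known as glucocorticoid response elements. In peripheral tissues the hormone is known to shift cells from glucose use toward fat and amino acid use and to damp inflammation. The arcuate nucleus sits at the base of the hypothalamus. Its AgRP/NPY neurons promote feeding and its POMC neurons restrain it, and they lie beside tanycytes, astrocytes, oligodendrocytes, microglia and vessels, close to capillaries that leak blood-borne signals.

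The libraries held 50704789 and 55542414 gene counts in Dex mice and 57060342 and 53400496 in Vehicle mice. Log-scale profiles correlated at 0.994 between the Dex libraries, at 0.996 between the Vehicle libraries, and at 0.981 to 0.984 between a Dex and a Vehicle library. Known receptor targets checked the labels first. Fkbp5, a chaperone that feeds back on the receptor, had 127 and 122.5 CPM (read counts scaled to the size of the library) in Dex mice, against 36 and 31.4 CPM in Vehicle mice (log2 fold change 1.89 ± 0.13, SE). Sgk1, a kinase, had 177 and 170 CPM in Dex mice, against 89.2 and 63.3 CPM in Vehicle mice. Of 12 such targets 8 were higher and 0 lower, with a median log2 fold change of 0.80, and 5 were higher without Vehicle replicate 2. Tsc22d3, the receptor target known as GILZ, had 124 and 122 CPM in Dex mice and 92.4 and 84.8 CPM in Vehicle mice and did not pass the test (0.47 ± 0.15, adjusted p = 0.0826 by edgeR's quasi-likelihood test).

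In all, 2464 of the 21461 genes (11.5%) were called, that is, had a Benjamini-Hochberg adjusted p under 0.05 in edgeR's quasi-likelihood test. Of these, 1080 genes (5.03% of all) were higher and 1384 (6.45%) were lower in Dex than in Vehicle mice. The counts of called members of gene groups below are to be read beside these 2 shares. The shares include RNA classes that were rarely called, and among protein-coding genes alone 13.7% were called in either direction. Most of the higher genes changed little: 672 of them (62.2%) changed by less than 1.5-fold, against 573 (41.4%) of the lower genes. The median log2 fold change was 0.43 among the higher genes and -0.73 among the lower genes. At least a 2-fold change was seen in 260 higher and 483 lower genes, and at least a 4-fold change in 71 and 91. Lower genes outnumbered higher genes most between 1 and 10 CPM, where 487 were lower and 163 higher. Between 10 and 100 CPM, 584 were lower and 574 higher, and above 100 CPM, 136 were lower and 208 higher. The genes called higher took 8.21% and 8.11% of all counts in Dex mice, against 6.39% and 6.22% in Vehicle mice. The genes called lower took 4.13% and 4.22% of counts in Dex mice, against 5.74% and 5.90% in Vehicle mice. Those shares describe the genes chosen by the test and are no test of their own.

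**Figure D1:**
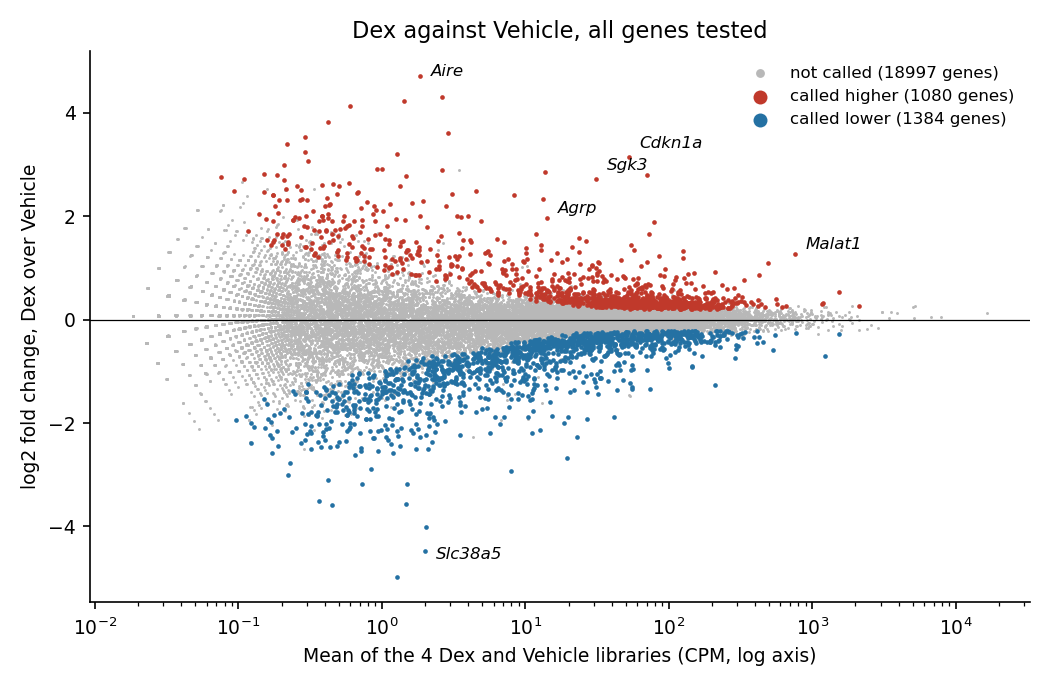
Log2 fold change (Dex over Vehicle) of each gene against its mean level in the 4 Dex and Vehicle libraries in CPM (log axis), with a point for each gene, red for 1080 genes called higher and blue for 1384 called lower. The called genes reach furthest from 0 at low levels, and lower genes outnumber higher genes most between 1 and 10 CPM.

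Protein-coding genes gave most of the calls, with 923 higher and 1242 lower of 15801. Long non-coding RNAs gave 135 higher and 131 lower of 3294, and none of 292 miRNA precursors or 252 snoRNAs was called (by edgeR's quasi-likelihood test). The median SE of the log2 fold change was 0.43 for these miRNA precursors and 0.47 for the snoRNAs. It was 0.096 for protein-coding genes, so changes in the 2 small RNA classes were harder to detect. Small changes could be bounded for many genes. Of 15561 genes at or above 1 CPM, the 95% interval of the fold change lay within 1.5-fold in either direction for 11205 (72%) and within 1.2-fold for 3727 (24%).

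The count of calls depended on single libraries. Without Vehicle replicate 2 the test called 183 higher and 355 lower genes, and without Vehicle replicate 1 it called 316 and 488. Without Dex replicate 1 it called 709 higher and 805 lower genes. A smaller set of 401 genes, 155 higher and 246 lower, passed in each of the 6 fits that left out 1 library. No called gene changed sign in any of those fits. The single genes named below passed in each of those 6 fits, except where a lost call is stated.

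**Figure D2:**
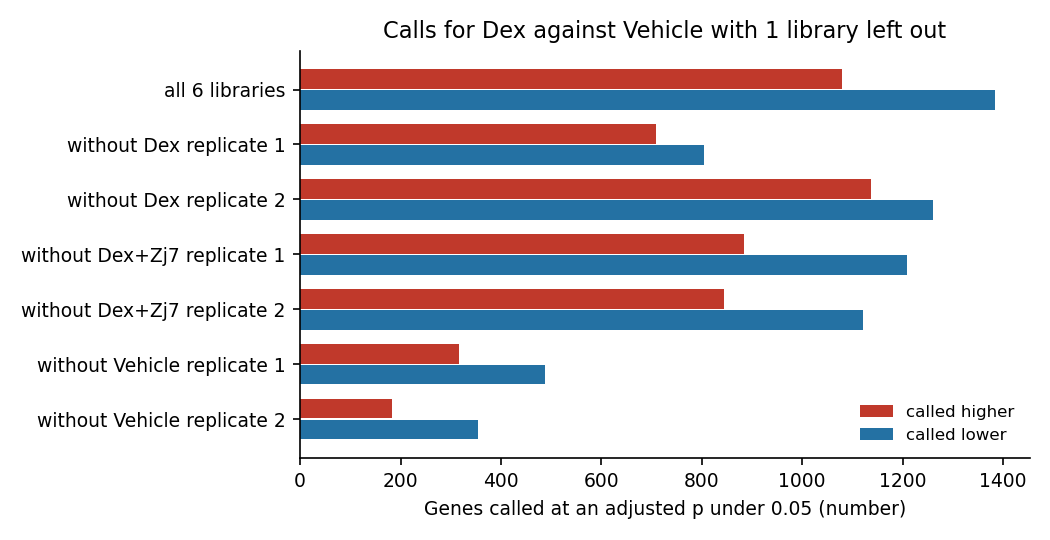
Number of genes called higher and lower in Dex than in Vehicle mice in the fit to all 6 libraries and in fits without 1 library. The counts are lowest without Vehicle replicate 2, at 183 higher and 355 lower genes.

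Among called genes with a mean of at least 1 CPM, predicted loci left out, the largest increase was that of Aire, the autoimmune regulator best known from the thymus, where it drives the expression of tissue-restricted antigens. Aire (chromosome 10, 78030022 to 78043610, mm10) had 3.63 and 3.50 CPM in Dex mice, against 0.225 and 0.0369 CPM in Vehicle mice. The fold change was 26.3 (log2 4.71 ± 0.52, 95% interval 3.53 to 5.90, adjusted p = 0.00194 by the quasi-likelihood test), and its width comes with as few as 2 counts in a Vehicle library. Adamts14, a protease of the family that trims procollagen, had 4.84 and 5.21 CPM in Dex mice, against 0.156 and 0.351 CPM in Vehicle mice (log2 4.31 ± 0.36). Cdkn1a, the cell cycle inhibitor p21, reached 95.7 and 94.1 CPM in Dex mice, against 11.1 and 10.3 CPM in Vehicle mice, an 8.87-fold change. The groups were far apart for both genes, although as a ratio the Vehicle libraries of Adamts14 differed from each other more than its Dex libraries did.

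Sgk3, Slc2a4, Il13ra2 and Setdb2 were also among the largest increases. Sgk3, a kinase related to Sgk1, had 57.6 and 50.5 CPM in Dex mice, against 8.08 and 8.25 CPM in Vehicle mice (6.62-fold). Slc2a4, which encodes the insulin-responsive glucose transporter GLUT4, had 13.6 and 14.4 CPM in Dex mice, against 3.06 and 2.22 CPM in Vehicle mice (5.29-fold). Il13ra2, a decoy receptor for interleukin 13, had 3.14 and 2.0 CPM in Dex mice, against 0.502 and 0.240 CPM in Vehicle mice. Setdb2, a histone methyltransferase of the SET domain family, had 24.8 and 19.9 CPM in Dex mice, against 5.24 and 3.56 CPM in Vehicle mice. The Dex and Vehicle libraries did not overlap in any called gene, nor in 12003 (55.9%) of all genes taken in either direction.

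Several of the largest increases were in genes of low level. Fyb2 had 6.26 and 4.46 CPM in Dex mice, against 0.433 and 0.443 CPM in Vehicle mice (log2 3.61 ± 0.30). Insl6, an insulin-like peptide known from testis, had 2.63 and 2.0 CPM in Dex mice, against 0.277 and 0.222 CPM in Vehicle mice. Glp2r, the receptor for glucagon-like peptide 2, had 2.59 and 1.97 CPM in Dex mice, against 0.329 and 0.425 CPM in Vehicle mice, and overlaps Gas7 and Rcvrn. Klrg2, a lectin-like receptor, had 7.72 and 7.57 CPM in Dex mice, against 1.16 and 1.57 CPM in Vehicle mice, and lost its call without either Vehicle library. Otog, which encodes otogelin of the inner ear's acellular gels, had 1.2 and 1.09 CPM in Dex mice, against 0.190 and 0.222 CPM in Vehicle mice. Its neighbour Ush1c, which encodes the scaffold harmonin, had 5.47 and 5.95 CPM in Dex mice, against 1.61 and 1.26 CPM in Vehicle mice. Otog and Ush1c were named after their values were seen. Of 13657 adjacent protein-coding pairs that do not overlap, both genes were higher in 79, both lower in 122, and 1 of each in 105.

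Among the largest decreases by the same choice, Slc38a5, a glutamine transporter, had 0.178 and 0.164 CPM in Dex mice, against 4.27 and 3.40 CPM in Vehicle mice (log2 -4.47 ± 0.44). Its level was 22.2-fold lower in Dex mice. Ptger1, a receptor for prostaglandin E2, had the largest of them and was 31.7-fold lower, at 0.0790 and 0.0728 CPM in Dex mice, against 2.34 and 2.60 CPM in Vehicle mice. Ptger1 overlaps another gene, so its value is less certain. H2aw, a histone gene that overlaps Trim17, had 0.257 and 0.200 CPM in Dex mice, against 1.12 and 4.32 CPM in Vehicle mice, so that its Vehicle libraries stood apart from each other. Its call was lost without either Dex library or without Vehicle replicate 2 (adjusted p up to 0.161 in the quasi-likelihood test). Lum, lumican of the meninges, had 0.434 and 0.255 CPM in Dex mice, against 2.68 and 1.4 CPM in Vehicle mice. Bin2, a membrane-bending protein of blood and microglial cells, had 0.612 and 0.655 CPM in Dex mice, against 3.91 and 3.25 CPM in Vehicle mice. Adcy4, an adenylate cyclase found in vessels, had 0.553 and 0.710 CPM in Dex mice, against 2.56 and 3.54 CPM in Vehicle mice (-2.26 ± 0.31).

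**Figure D3:**
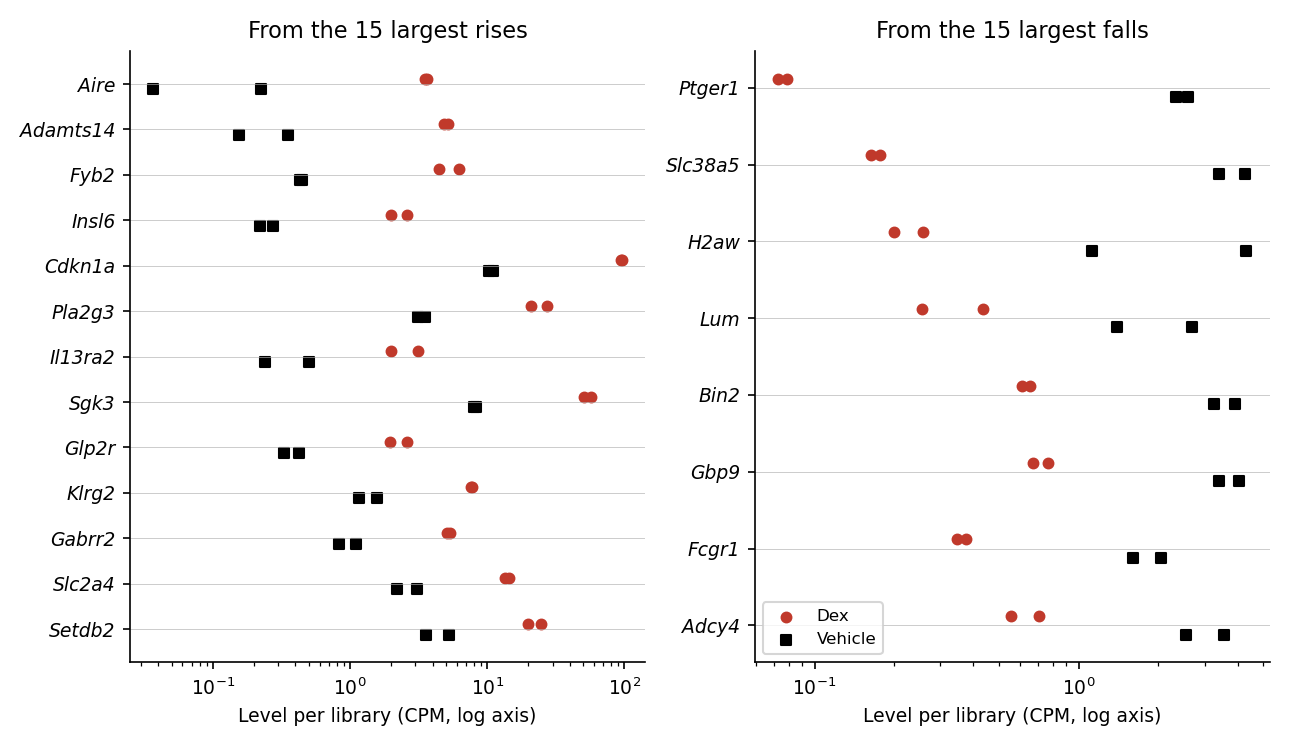
Level in CPM (log axis) of genes described in the text from among the 15 largest increases (left) and the 15 largest decreases (right), with a red circle for each Dex library and a black square for each Vehicle library. Dex and Vehicle libraries are apart in each gene shown, as the choice of genes required, and the Vehicle libraries of Aire and of H2aw are spread widest.

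The promoters of the called genes were searched for the letters of the glucocorticoid response element, since many rapid targets of the receptor carry one near the gene's start. RefSeq promoter windows on GRCm38.p6, running from 250 bases before to 50 bases after each start, matched 14918 of the genes. The core ACANNNTGT, which reads the same on both strands, was found in a window of 881 of them (5.91%). It was found in 24 of 180 genes (13.3%) called higher by at least 2-fold and in 67 of 834 (8.03%) of all genes called higher. Among genes called lower it was found in 56 of 1042 (5.37%), and among those lower by at least 2-fold in 23 of 359 (6.41%). These shares are descriptions with no test, and the windows leave out distant enhancers. The whole palindrome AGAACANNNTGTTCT, which contains the core, occurred in only 1 gene, Sgk1. Some of the 24 genes are predicted or RIKEN loci, and 6 of the rest follow with up to 20 bases on each side. No rule chose these 6, and they lean to the closer matches. All 6 passed in each fit that left out 1 library, but most of the 24 genes did not. The Sgk1 window shown holds all 12 fixed letters of the palindrome, and each other window shown holds 9. Among genes not shown, Cd300lf also holds 9, P2ry4 holds 7 and Ms4a6c holds 6. Serpina3c and Serpina3i, also among the 24 and not shown, are relatives of Serpina3n, and Serpina3c has the same window. Cd300lf, P2ry4, Serpina3c and Serpina3i lost their calls without 1 or more libraries. The core is in capitals, and each window is read along the strand of its gene.
Sgk1 (chr10:21993684-21993732, plus strand): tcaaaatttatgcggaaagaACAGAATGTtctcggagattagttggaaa
Fbxw23 (chr9:109543290-109543338, minus strand): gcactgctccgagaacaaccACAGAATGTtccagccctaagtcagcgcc
Map3k6 (chr4:133240619-133240667, plus strand): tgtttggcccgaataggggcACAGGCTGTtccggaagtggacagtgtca
Kcna5 (chr6:126535584-126535632, minus strand): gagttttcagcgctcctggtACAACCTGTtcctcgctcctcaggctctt
Fyb2 (chr4:104913311-104913344, plus strand): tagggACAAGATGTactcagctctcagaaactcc
Serpina3n (chr12:104406612-104406660, plus strand): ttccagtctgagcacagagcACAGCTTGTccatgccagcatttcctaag

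The genes behind these windows differed widely in level. Map3k6, a stress-activated kinase, had 10.2 and 10.7 CPM in Dex mice, against 3.6 and 3.78 CPM in Vehicle mice (log2 1.5 ± 0.14). Kcna5, a voltage-gated potassium channel subunit, had 40.7 and 38.3 CPM in Dex mice, against 19.8 and 18.1 CPM in Vehicle mice (1.06 ± 0.10). Fbxw23, an F-box gene, had 4.24 and 4.95 CPM in Dex mice, against 0.830 and 1.18 CPM in Vehicle mice. Serpina3n, a secreted protease inhibitor known as a marker of reactive astrocytes, had 81.8 and 110 CPM in Dex mice, against 45.7 and 42.8 CPM in Vehicle mice (1.12 ± 0.15). It belongs to a family of near-identical neighbours that can share reads, so its value is uncertain.

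Among abundant transcripts, 2 non-coding RNAs were higher. Malat1, a nuclear long non-coding RNA, had 1013 and 1131 CPM in Dex mice, against 514 and 371 CPM in Vehicle mice (1.28 ± 0.16). Rn18s-rs5, a copy of the 18S ribosomal RNA, had 551 and 789 CPM in Dex mice, against 332 and 293 CPM in Vehicle mice (1.10 ± 0.14). The libraries were made from polyadenylated RNA, in which ribosomal RNA is residual. These 2 transcripts differed between the groups, and any part of residual ribosomal RNA or nuclear RNA in the other results was not tested. Abundant mRNAs that rose included Agt and Apod. Agt, the precursor of angiotensin made by hypothalamic astrocytes, had 398 and 439 CPM in Dex mice, against 253 and 239 CPM in Vehicle mice (0.77 ± 0.07). Apod, a lipid carrier, had 293 and 258 CPM in Dex mice, against 156 and 136 CPM in Vehicle mice (0.92 ± 0.13). Glul, the glutamine synthetase of astrocytes, had 1799 and 1814 CPM in Dex mice, against 1199 and 1284 CPM in Vehicle mice, but lost its call without Vehicle replicate 1 (adjusted p = 0.0638 by the quasi-likelihood test). Among abundant mRNAs that fell, Peg10, an imprinted gene derived from a retrotransposon, had 424 and 423 CPM in Dex mice, against 606 and 664 CPM in Vehicle mice (-0.59 ± 0.07).

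**Figure D4:**
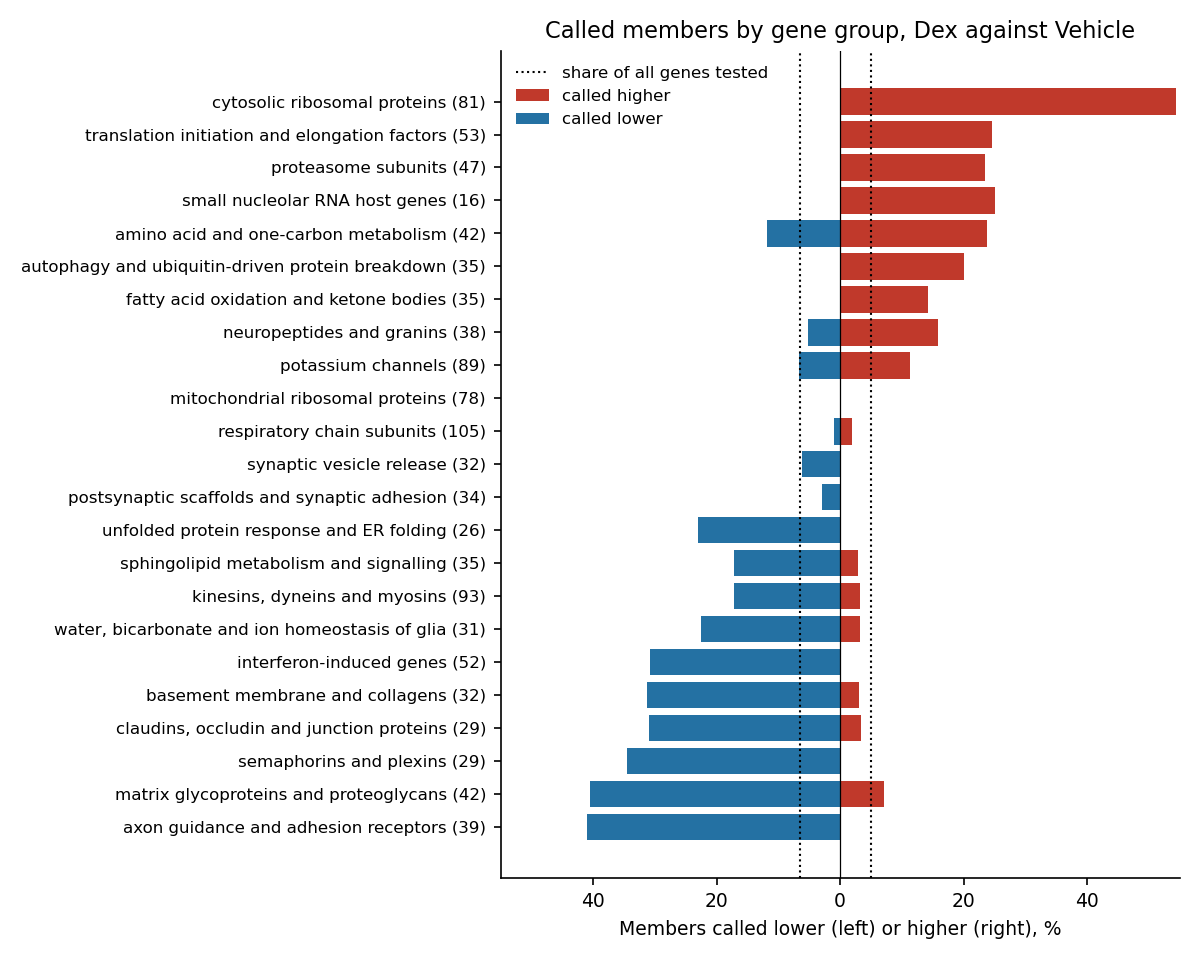
Percent of the measured members of each gene group that were called higher (bars to the right) or lower (bars to the left) in Dex than in Vehicle mice, with the number of members in brackets and dotted lines at the shares of all genes, 5.03% and 6.45%. The longest bar to the right is that of the cytosolic ribosomal proteins, 54.3%, and the longest bars to the left are those of the axon guidance and matrix glycoprotein groups.

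Several genes of fuel use were higher. Pdk4, a kinase that inhibits the pyruvate dehydrogenase complex, had 18.4 CPM in both Dex libraries, against 7.73 and 6.81 CPM in Vehicle mice (1.34 ± 0.12). Pnpla2, the lipase that starts triglyceride breakdown, had 79.7 and 79.8 CPM in Dex mice, against 29.0 and 29.5 CPM in Vehicle mice (1.45 ± 0.11). Of 35 fatty acid oxidation genes 5 were higher (14.3%, beside 5.03% of all genes) and 0 lower, and the count was 2 without Dex replicate 2, 2 without Vehicle replicate 1 and 1 without Vehicle replicate 2. Klf15, a transcription factor of amino acid and fat use, had 61.4 and 63.4 CPM in Dex mice, against 36.7 and 34.9 CPM in Vehicle mice. Mfsd2a, a carrier of docosahexaenoic acid that was named after its values were seen, had 78.0 and 84.8 CPM in Dex mice, against 29.0 and 35.2 CPM in Vehicle mice. Of 38 genes of fatty acid and glyceride synthesis and storage 5 were higher and 8 lower (21.1%, beside 6.45% of all genes). Without Vehicle replicate 1 there were 3 and 2, without Vehicle replicate 2 there were 2 and 1, without Dex replicate 1 there were 3 and 4, and without Dex replicate 2 the lower count was 5. Fads2, a desaturase of polyunsaturated fatty acids, was lower, at 186 and 190 CPM in Dex mice, against 250 and 251 CPM in Vehicle mice.

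Sphingolipid genes were mostly lower where called. Of 35 sphingolipid genes 6 were lower (17.1%, beside 6.45% of all genes) and 1 higher. Fa2h, which makes the hydroxylated fatty acids of myelin lipids, had 18.1 and 23.2 CPM in Dex mice, against 44.7 and 45.5 CPM in Vehicle mice (-1.12 on the log2 scale). S1pr1, a receptor for sphingosine 1-phosphate in vessels and astrocytes, had 73.8 and 71.3 CPM in Dex mice, against 111 and 107 CPM in Vehicle mice. The phospholipase A2 genes, a group named after its values were seen, moved in both directions, with 3 higher and 3 lower of 11. The lower count was 2 without either Dex library and 1 without either Vehicle library. Pla2g3, a secreted form, had 21.0 and 27.1 CPM in Dex mice, against 3.15 and 3.53 CPM in Vehicle mice (7.21-fold). It overlaps Inpp5j, which was not called at 39.7 and 45.0 CPM in Dex mice and 45.3 and 51.8 CPM in Vehicle mice. Pla2g4e, a cytosolic form, had 23.0 and 18.9 CPM in Dex mice, against 11.1 and 7.61 CPM in Vehicle mice. Pla2g4a, the cytosolic form that releases arachidonic acid for prostaglandin synthesis, fell to 1.30 and 0.819 CPM in Dex mice, against 3.39 and 3.21 CPM in Vehicle mice (-1.64 ± 0.25).

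Amino acid genes were split. Of 42 amino acid and one-carbon genes 10 were higher (23.8%, beside 5.03% of all genes) and 5 lower (11.9%, beside 6.45%). The higher count was 3 without Vehicle replicate 1 and 4 without Vehicle replicate 2. The lower count was 1 without Vehicle replicate 2, 3 without Vehicle replicate 1 or Dex+Zj7 replicate 2, and 2 without Dex replicate 1. Prodh, the first enzyme of proline breakdown, had 35.9 and 34.7 CPM in Dex mice, against 22.5 and 24.6 CPM in Vehicle mice. Etnppl, which degrades phosphoethanolamine in astrocytes, had 151 and 127 CPM in Dex mice, against 85.6 and 78.2 CPM in Vehicle mice (0.76 ± 0.09). Gatm, the first enzyme of creatine synthesis, was lower, at 50.0 and 45.8 CPM in Dex mice, against 90.3 and 97.7 CPM in Vehicle mice (-0.97 ± 0.10). Slc7a11, the cystine/glutamate exchanger of glia, had 36.7 and 36.4 CPM in Dex mice, against 83.8 and 59.7 CPM in Vehicle mice.

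Some genes that handle steroids, thyroid hormone and amines were called. Of the steroid and thyroid hormone genes 14.8% were higher and 11.1% lower, beside 5.03% and 6.45% of all genes. Of 27 genes of steroid and thyroid hormone handling 4 were higher and 3 lower, with 2 and 2 without either Vehicle library and 2 lower without Dex replicate 2. Akr1c14, a hydroxysteroid dehydrogenase, fell to 0.276 and 0.455 CPM in Dex mice, against 1.85 and 1.38 CPM in Vehicle mice (-2.13 ± 0.33). Cyp4f15, a fatty acid hydroxylase, was higher, at 16.4 and 16.5 CPM in Dex mice, against 8.32 and 8.36 CPM in Vehicle mice. Smox, the spermine oxidase, had 64.3 and 83.9 CPM in Dex mice, against 43.5 and 46.9 CPM in Vehicle mice, with the Dex libraries further apart than the Vehicle libraries. Ddc, the decarboxylase that makes dopamine and serotonin, had 63 and 66.6 CPM in Dex mice, against 43.1 and 44.1 CPM in Vehicle mice (0.57 ± 0.07).

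Transporters moved both ways. Of 310 solute carriers 27 were higher (8.71%, beside 5.03% of all genes) and 29 lower (9.35%, beside 6.45%). Without Vehicle replicate 1 the counts were 7 and 15, without Vehicle replicate 2 they were 3 and 12, and without Dex replicate 1 the higher count was 15. By edgeR's exact test the lower count was 44. Slc38a3, a glutamine transporter of astrocytes, had 32.1 and 30.8 CPM in Dex mice, against 57.5 and 58.7 CPM in Vehicle mice. Slc6a9, the glycine transporter GlyT1, had 87.3 and 97.7 CPM in Dex mice, against 139 CPM in both Vehicle libraries. Slco1c1, which carries thyroxine into the brain at its vessels, had 15.7 and 15.6 CPM in Dex mice, against 32.4 and 30.7 CPM in Vehicle mice (-1.01 on the log2 scale). Abca1, the cholesterol exporter, was higher, at 119 and 102 CPM in Dex mice, against 75.9 and 64.5 CPM in Vehicle mice. Abcb1a, the drug pump P-glycoprotein of brain vessels, for which Dex is a known substrate, was lower, at 20.2 and 17.8 CPM in Dex mice, against 32 and 27.9 CPM in Vehicle mice (-0.66 ± 0.10). It overlaps Rundc3b.

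The machinery of protein synthesis shifted upward by a small amount. Of 81 cytosolic ribosomal protein genes 44 (54.3%) were higher and 0 lower, beside 5.03% higher of all genes, and their median log2 fold change was 0.24, beside 0.00 over all genes. Of the 81, 80 had a positive value, and in 75 both Dex libraries were above both Vehicle libraries, which was the case for 27.4% of all genes. Their summed level was 11700 and 12200 CPM in Dex mice and 9930 and 9970 CPM in Vehicle mice. The calls rested on the Vehicle libraries: 1 remained called without Vehicle replicate 1 and 0 without Vehicle replicate 2, while the median stayed between 0.22 and 0.28 in all 6 fits that left out 1 library. In a fit to the 4 Dex and Vehicle libraries alone 29 were called. Members named after their values were seen included Rpl3, at 610 and 666 CPM in Dex mice and 486 and 476 CPM in Vehicle mice (0.41 ± 0.07), and Rps20, at 90.7 and 90.4 CPM in Dex mice and 71.2 and 70.1 CPM in Vehicle mice (0.36 ± 0.06). Both lost their calls without either Vehicle library.

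Translation factors and the proteasome moved in the same direction. Of 53 translation initiation and elongation factors 13 were higher and 0 lower, with a median of 0.14, and the count was 7 without Dex replicate 1, 2 without Vehicle replicate 1 and 0 without Vehicle replicate 2. Eif4b, which helps the initiation helicase, had 359 and 342 CPM in Dex mice, against 266 and 239 CPM in Vehicle mice, and lost its call without Vehicle replicate 2 (adjusted p = 0.0573 by the quasi-likelihood test). Of 47 proteasome genes 11 were higher and 0 lower, with a median of 0.16 and a summed level of 3080 and 3060 CPM in Dex mice, against 2730 and 2660 CPM in Vehicle mice. That count was 7 without Dex+Zj7 replicate 2, 1 without Vehicle replicate 1 and 0 without Vehicle replicate 2, and it was 7 in the fit to the 4 Dex and Vehicle libraries and 18 by edgeR's exact test. By the quasi-likelihood test, mitochondrial ribosomal proteins had 0 called of 78 and a median of 0.04, with 14 at an unadjusted p under 0.05. The respiratory chain had 2 higher and 1 lower of 105 by that test.

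**Figure D5:**
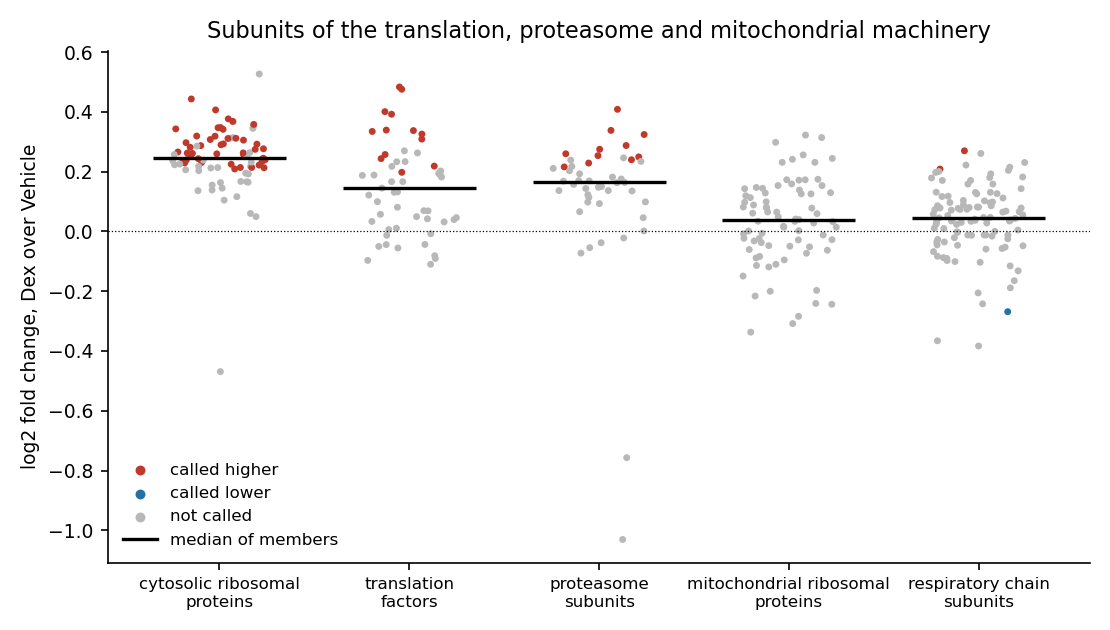
Log2 fold change (Dex over Vehicle) of each member (points) of 5 groups of the protein synthesis, protein breakdown and mitochondrial machinery, with called members coloured and a bar at the median of each group. Cytosolic ribosomal proteins have 44 called of 81, all above 0, and mitochondrial ribosomal proteins have 0 called of 78.

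Ribosomal protein mRNAs are short, and short transcripts as a whole were shifted a little upward. Among genes at or above 10 CPM, those with a transcript under 1 kb had a median log2 fold change of 0.08, and 13.3% of these 384 were called higher. The 333 of them that are not ribosomal proteins had a median of 0.05, with 8.41% higher. Genes over 8 kb had a median of 0.01, with 7.17% of 1088 higher. The part of transcript length in the ribosomal protein result was not tested beyond these values.

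Chaperones did not share that direction. Of 26 genes of protein folding and the unfolded protein response in the endoplasmic reticulum 6 were lower and 0 higher. The lower count was 3 without Vehicle replicate 1, 0 without Vehicle replicate 2 and 3 without either Dex+Zj7 library. Calr, calreticulin, had 243 and 254 CPM in Dex mice, against 334 and 374 CPM in Vehicle mice, and its adjusted p was 0.0508 (the same test) without Vehicle replicate 2. Hsph1, an Hsp110 chaperone of the cytosol, had 207 and 227 CPM in Dex mice, against 313 and 417 CPM in Vehicle mice (-0.75 ± 0.12). It was the 1 called gene of 11 inducible heat shock genes, a group chosen after its values were seen. Hspa1a, the classical inducible Hsp70, had 11.6 and 13.5 CPM in Dex mice and 11.2 and 18.1 CPM in Vehicle mice, so that its groups overlapped.

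The cold-inducible RNA-binding proteins, chosen after their values were seen, were among the clearer increases. Rbm3, which rises when cells are mildly cooled, had 124 and 96.3 CPM in Dex mice, against 41.5 and 28.7 CPM in Vehicle mice (log2 1.65 ± 0.17, adjusted p = 0.00130 by the quasi-likelihood test). Its pseudogene Rbm3-ps had 9.42 and 6.17 CPM in Dex mice, against 2.34 and 1.83 CPM in Vehicle mice, and may share its reads. Cirbp, its closest relative, had 125.6 and 122.8 CPM in Dex mice, against 73.0 and 53.6 CPM in Vehicle mice (0.97 ± 0.12). In both, the lowest Dex library was above the highest Vehicle library, as it was in every gene called higher. Body temperature is not given in the labels. Of 17 circadian clock genes, also chosen late, 2 were higher (11.8%, beside 5.03% of all genes) and 3 lower (17.6%, beside 6.45%). All but Dbp lost their calls without 1 or more libraries, and 1 gene in all was called without Vehicle replicate 2. Dbp, a clock output factor that overlaps Sphk2, was lower, at 34.1 and 36.8 CPM in Dex mice, against 65.7 and 59.6 CPM in Vehicle mice.

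Among neuropeptide and granin genes, 6 of 38 were higher (15.8%, beside 5.03% of all genes) and 2 lower (5.26%, beside 6.45%). Without Vehicle replicate 1 the higher count was 2, and it was 3 without Vehicle replicate 2 or without Dex+Zj7 replicate 2. Agrp, the orexigenic peptide of arcuate neurons, had 23.2 and 22 CPM in Dex mice, against 6.30 and 5.19 CPM in Vehicle mice (1.97 ± 0.13), and Npy had 71.7 and 56.8 CPM in Dex mice, against 33.6 and 24.4 CPM in Vehicle mice. Apln, the precursor of apelin, fell to 10.0 and 10.6 CPM in Dex mice, against 19.4 and 21.0 CPM in Vehicle mice (-0.97 ± 0.09). Ghsr, the ghrelin receptor of AgRP neurons, had 26.0 and 20.2 CPM in Dex mice, against 15.5 and 10.6 CPM in Vehicle mice, but its call was lost without Dex replicate 1 or Vehicle replicate 2 (adjusted p up to 0.111 in the quasi-likelihood test). Il6st, the gp130 receptor shared by interleukin 6 and ciliary neurotrophic factor, had 90.1 and 88.8 CPM in Dex mice, against 125 and 120 CPM in Vehicle mice.

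Other called genes of neuronal signalling were scattered over several families. Ppp1r1b, the dopamine-regulated phosphatase inhibitor DARPP-32, had 39.8 and 42.7 CPM in Dex mice, against 19 and 22.4 CPM in Vehicle mice (1.0 ± 0.10). Kcnt1, a sodium-activated potassium channel, had 303 and 313 CPM in Dex mice, against 205 and 203 CPM in Vehicle mice. Of 89 potassium channel genes 10 were higher (11.2%, beside 5.03% of all genes) and 6 lower (6.74%, close to the 6.45% of all genes). Without Vehicle replicate 1 the counts were 5 and 2, and without Vehicle replicate 2 they were 3 and 2. Gabrr2, a rho subunit of GABA receptors, had 5.11 and 5.32 CPM in Dex mice, against 1.11 and 0.831 CPM in Vehicle mice. Grm3, a metabotropic glutamate receptor common in astrocytes, was lower, at 14.6 and 14.9 CPM in Dex mice, against 24.7 and 27.3 CPM in Vehicle mice. Synaptic vesicle genes had 2 lower and 0 higher of 32, and postsynaptic scaffold genes 1 lower and 0 higher of 34, both near or below the 6.45% lower of all genes.

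Extracellular matrix genes were often lower. Of 42 matrix glycoproteins and proteoglycans 17 were lower and 3 higher, with a median log2 fold change of -0.29. The lower count was 7 without Vehicle replicate 1 and 11 without Vehicle replicate 2. Fn1, fibronectin, had 33.1 and 29.2 CPM in Dex mice, against 88.1 and 70.0 CPM in Vehicle mice (-1.34 ± 0.11). Ncan, neurocan of perineuronal matrix, had 66.4 and 74.8 CPM in Dex mice, against 125 and 126 CPM in Vehicle mice (-0.83 on the log2 scale). Igfbp5, a binding protein of insulin-like growth factors, had 124 and 135 CPM in Dex mice, against 219 and 205 CPM in Vehicle mice. Fbln5, an elastic fibre protein, went the other way, at 22.9 and 31.6 CPM in Dex mice, against 11.8 and 12.3 CPM in Vehicle mice (1.17 ± 0.15), as did Emilin2, at 10.4 and 11.4 CPM in Dex mice, against 5.48 and 4.80 CPM in Vehicle mice.

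Basement membrane genes and matrix-processing enzymes were lower as well. Of 32 collagen and basement membrane genes 10 were lower and 1 higher, with 4 lower without Vehicle replicate 1. Hspg2, perlecan, had 6.0 and 6.08 CPM in Dex mice, against 15.8 and 16.5 CPM in Vehicle mice (-1.42 ± 0.11). Of 34 remodelling genes 11 were lower and 1 higher. Leaving out Vehicle replicate 2 left 3 lower, Vehicle replicate 1 left 5, and Dex replicate 1 left 7. Adamts4, which cleaves aggrecan and its relatives and overlaps another gene, had 20.6 and 21.0 CPM in Dex mice, against 41.5 and 49.8 CPM in Vehicle mice. Serpinh1, the collagen chaperone Hsp47, had 9.12 and 9.45 CPM in Dex mice, against 18.6 and 20.8 CPM in Vehicle mice.

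Guidance and junction genes were lower too. Of 39 axon guidance and adhesion receptor genes 16 were lower and 0 higher, with a median of -0.20, and the count was 7 without Dex replicate 1, 5 without Vehicle replicate 1 and 2 without Vehicle replicate 2. Plxnb3, a semaphorin receptor of oligodendrocytes, had 16.0 and 18.8 CPM in Dex mice, against 42.0 and 51.7 CPM in Vehicle mice (-1.43 ± 0.14). Unc5b, a netrin receptor of vessels, had 22.7 and 21.6 CPM in Dex mice, against 43.4 and 44.8 CPM in Vehicle mice. Of 29 junction genes 9 were lower and 1 higher, and the lower count was 5 without Vehicle replicate 2. Of 11 connexins, grouped after their values were seen, 5 were lower and 1 higher. Gjb1, connexin 32 of oligodendrocytes, had 3.36 and 3.84 CPM in Dex mice, against 10.6 and 12.8 CPM in Vehicle mice (-1.70 on the log2 scale). Gja1, connexin 43 of astrocytes, had 174 and 167 CPM in Dex mice, against 226 and 221 CPM in Vehicle mice. Gjb6, connexin 30 of astrocytes, was higher, at 129 and 125 CPM in Dex mice, against 82.9 and 86.3 CPM in Vehicle mice (0.59 ± 0.07).

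Genes of glial ion balance and of motor proteins were lower in part. Of 31 genes of water, bicarbonate and ion homeostasis in glia 7 were lower and 1 higher. The lower count was 4 without Dex replicate 1, 2 without either Vehicle library and 13 by edgeR's exact test, and the higher gene was lost without either Vehicle library. Kcnj10, the potassium channel Kir4.1 of astrocytes and oligodendrocytes, had 367 and 332 CPM in Dex mice, against 481 and 470 CPM in Vehicle mice, and lost its call without either Vehicle library. Of 93 kinesins, dyneins and myosins 16 were lower and 3 higher, with 6 and 0 without Vehicle replicate 1, 10 and 0 without Vehicle replicate 2, and 26 lower by edgeR's exact test. Myo1d, a class I myosin found in oligodendrocytes, had 7.74 and 7.81 CPM in Dex mice, against 20.3 and 19.8 CPM in Vehicle mice (-1.37 ± 0.12). Dnah10, a dynein of motile cilia, had 5.96 and 7.3 CPM in Dex mice, against 14.8 and 13.5 CPM in Vehicle mice. Rgs16, a brake on G protein signalling, had 11.4 and 14.9 CPM in Dex mice, against 26.3 and 27.4 CPM in Vehicle mice (-1.03 ± 0.12).

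Interferon-induced genes were lower where called. Of 52 such genes 16 were lower and 0 higher, with a median of -0.52. Without Vehicle replicate 1 the count was 6, and it was 7 without Vehicle replicate 2 or without Dex replicate 2, and 25 by edgeR's exact test. Guanylate-binding proteins, GTPases of antimicrobial defence grouped after their values were seen, gave 5 lower of 9 (55.6%, beside 6.45% of all genes), a count that was 3 without Vehicle replicate 1. Gbp2 had 0.750 and 0.619 CPM in Dex mice, against 3.10 and 2.44 CPM in Vehicle mice, and Gbp9 had 0.671 and 0.765 CPM in Dex mice, against 4.05 and 3.42 CPM in Vehicle mice. Cxcl12, a chemokine of vessels and meninges, had 12.9 and 9.74 CPM in Dex mice, against 28.5 and 31.3 CPM in Vehicle mice (-1.40 ± 0.18). Fcgr1, the high-affinity IgG receptor, had 0.375 and 0.346 CPM in Dex mice, against 1.61 and 2.05 CPM in Vehicle mice. Tlr7, a receptor for single-stranded RNA, was higher, at 8.55 and 6.70 CPM in Dex mice, against 3.04 and 3.14 CPM in Vehicle mice (1.30 ± 0.19).

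Cell type markers moved with several of these groups, and their counts stand beside 5.03% higher and 6.45% lower of all genes. In bulk tissue, fewer cells of a type and less RNA per cell cannot be told apart. Of 12 microglial markers 8 were lower, with a summed level of 192 and 193 CPM in Dex mice and 309 and 314 CPM in Vehicle mice. Of 12 endothelial markers 10 were lower, with sums of 128 and 111 CPM in Dex mice and 235 and 243 CPM in Vehicle mice. Of 10 oligodendrocyte markers 8 were lower, with sums of 4230 and 4220 CPM in Dex mice and 5240 and 5700 CPM in Vehicle mice. Of 9 markers of oligodendrocyte precursors 6 were lower and 1 higher, with sums of 475 and 528 CPM in Dex mice and 575 and 631 CPM in Vehicle mice, and the lower count was 2 without Dex replicate 1 or Vehicle replicate 1 and 0 without Vehicle replicate 2. Ependymal markers had 3 lower of 9, with 1 without either Vehicle library, and tanycyte markers 3 lower of 9, with 0 without Vehicle replicate 1. Mural cell markers, with 8 lower of 11 and 5 lower without either Vehicle library, summed to 139 and 132 CPM in Dex mice and 269 and 247 CPM in Vehicle mice, and meningeal markers, with 5 lower of 10 and 2 lower without Dex replicate 2 or Vehicle replicate 1, to 90.0 and 37.9 CPM in Dex mice and 218 and 115 CPM in Vehicle mice. Neuronal markers summed to 5870 and 6050 CPM in Dex mice and 5810 and 5970 CPM in Vehicle mice, with 1 lower of 10, and astrocyte markers to 4260 and 4170 CPM in Dex mice and 4080 and 4190 CPM in Vehicle mice, with 2 higher and 2 lower of 10. The part of these cell types in the matrix, junction, guidance and immune results was not tested. Of 12 arcuate markers, 3 were higher and 1 lower, and their sum was 308 and 304 CPM in Dex mice and 252 and 347 CPM in Vehicle mice.

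Families of transcriptional regulators were called in both directions. Nuclear receptors had 1 higher and 4 lower of 41, Sox and Fox factors 1 higher and 5 lower of 48, and Kruppel-like and Sp factors 3 higher and 4 lower of 25. In that order the lower counts were 1, 2 and 0 without Dex replicate 1, 2, 5 and 2 without Dex replicate 2, 1, 1 and 0 without Vehicle replicate 1, and 0 each without Vehicle replicate 2. Kruppel-like and Sp factors had 2 lower without either Dex+Zj7 library and 1 higher without Vehicle replicate 2. Maff, a small Maf factor named after its values were seen, had 6.26 and 6.39 CPM in Dex mice, against 1.59 and 1.57 CPM in Vehicle mice (2.0 ± 0.16). Hif3a, a hypoxia-inducible factor also named late, had 42.7 and 35.9 CPM in Dex mice, against 21.3 and 17.2 CPM in Vehicle mice. Nr5a1, the steroidogenic factor SF-1 that marks the neighbouring ventromedial nucleus, had 21.8 and 20.2 CPM in Dex mice, against 14 and 13.5 CPM in Vehicle mice. It was the only called gene of 7 ventromedial markers, whose median log2 fold change was -0.018. Those 7 summed to 520 and 460 CPM in Dex mice and 496 and 479 CPM in Vehicle mice, so their groups overlapped. Arrdc2, an arrestin-domain protein, also named late, had 34.6 and 35.7 CPM in Dex mice, against 13.6 and 9.99 CPM in Vehicle mice (1.57 ± 0.15). Of 435 Zfp and Zbtb zinc finger genes 11 were higher and 13 lower, below the share of all genes in both directions. Without Dex replicate 1 there were 7 and 1, without Vehicle replicate 1 they numbered 1 and 0, and without Vehicle replicate 2 both counts were 0. The higher count was 20 without Dex replicate 2, and the lower count was 8 without either Dex+Zj7 library and 28 by edgeR's exact test. Ptpn11, the phosphatase SHP2, which acts in leptin receptor signalling, had 335 and 355 CPM in Dex mice, against 229 and 222 CPM in Vehicle mice.

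The Dex+Zj7 libraries were set beside these values without a test. Aire had 4.65 and 2.57 CPM and Cdkn1a 82.9 and 50.1 CPM in Dex+Zj7 mice. Rbm3 had 112 and 108 CPM and Malat1 834 and 666 CPM in Dex+Zj7 mice. For each of these 4 genes both Dex+Zj7 libraries lay above both Vehicle libraries. Agrp, at 13.5 and 15.8 CPM in Dex+Zj7 mice, lay between the Dex and the Vehicle libraries.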

How the data were processed

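Poly(A)-selected, stranded libraries from 6 mouse samples (2 each of Dex, Dex+Zj7 and Vehicle) were analysed. By the methods, the authors trimmed reads, removed duplicates, mapped to mm10 and assembled transcripts with StringTie, and removed genes with 0 counts in any library, so such genes were not analysed here. Gene read counts were used as deposited and summed to 50704789 to 61122938 per library. FPKM values deposited by the authors served only to derive transcript lengths. Deposited TPM, log2-normalized, mean, fold change and p-value columns were not used. Whether strand was used in counting is not stated in the sources, so 764 called genes that overlap another gene are less certain. R 4.3.3 with edgeR 4.0.16 fitted a quasi-likelihood model with TMM scaling (factors 0.987 to 1.01) to all 6 libraries and 21461 genes, with Benjamini-Hochberg adjustment at 0.05 and standard errors derived from the F statistic. No low-count filter was applied. CPM values use TMM-scaled library sizes. The tests were checked on simulated data. Alternatives used other scalings, filters and models, DESeq2 1.42.0 and limma 3.58.1, and left out each library.

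The members and lists were chosen with earlier results of these data known. Genes named by rule were called genes with no overlap between Dex and Vehicle libraries, without predicted, RIKEN, microRNA, mitochondrially encoded and ribosomal protein genes: the 15 with the largest log2 fold change and the 10 with the largest CPM difference in each direction (mean of at least 1 CPM), up to 4 members of each list with the smallest p, and 4 treatment check genes. Exceptions are stated, and Inpp5j, Hspa1a, Fbln5, Emilin2 and Slc6a9 were also named after their values were seen. Families were defined by gene symbol, and symbols that only share a prefix, such as the Rps6k kinases, were left out. Some genes that met the rule are not reported here.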

Additional observations from a re-analysis of the deposited data

How the results depend on the processing

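The 1080 higher and 1384 lower genes became 1660 and 2066 by edgeR's exact test and 1369 and 1593 by DESeq2. Total-count scaling gave 909 and 1590, so that 36.4% of calls were higher, against 43.8% with TMM scaling. With a fold change of at least 2 added there were 260 and 483, and at an adjusted p under 0.01 there were 242 and 361. The fits that left out 1 library gave 183 to 1137 higher and 355 to 1260 lower genes, with the lowest counts without Vehicle replicate 2. RLE and upper quartile scaling, a minimum of 1 CPM, limma-voom and the fit to 4 libraries kept both counts within 1.5-fold. The replicate block gave 1743 higher and 1923 lower genes. Same-numbered Dex and Vehicle libraries deviated together with a correlation of 0.322 over 15531 genes, but the other pairs of groups gave 0.023 and -0.0115, and with only 2 numbers the libraries share no more than a number. Under the block the cytosolic ribosomal proteins had 68 higher, the proteasome 19 higher, the potassium channels 10 lower and the zinc finger genes 21 higher and 24 lower. No named gene changed direction in any alternative. Of 367 genes named by the rule, 196 lost their call without Vehicle replicate 2 and 154 without Vehicle replicate 1, against 5 or fewer under another scaling or test in the same libraries and 29 in the fit to the 4 Dex and Vehicle libraries. With 2 libraries a group, fold changes of low genes are imprecise, and genes at 0 in any library were not analysed here.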
